A study of Mus musculus with 8 samples.

Results

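The 10 genes described here make, import or convert neurosteroids in the brain: Cyp11a1, Star, Tspo, Fdx1, Fdxr, Cyp17a1, Cyp19a1, Srd5a1, Akr1c14 and Cyp7b1. Their members on the array were every non-control probe that carries one of these gene names, which gave 13 probes of 39429 and 10 genes of 30139. The genes were chosen with their difference between genotypes already known, so their own differences are given as values with no p, and where members are counted past a threshold the count is a description. Hippocampal RNA was compared between 3 pools of Ctcf conditional knockout mice (CKO: Ctcf loxP/loxP with Camk2a-Cre) and 3 pools of controls (WT: Ctcf loxP/loxP without Camk2a-Cre), to ask which transcripts differ in the tissue when Camk2a-expressing neurons lose Ctcf. Both genotypes were C57BL/6 mice carrying 2 floxed copies of Ctcf, a gene for a zinc-finger protein that anchors chromatin loops. Each pool was made from 3 mice, matched by pool number between the genotypes: 2 females with 1 male at 19 to 23 weeks for pool 1, 3 females at 18 to 19 weeks for pool 2, and 3 males at 15 to 17 weeks for pool 3. All mice had been through open field, sensorimotor, water maze and social approach tests. Cre was present in CKO mice alone, so effects of Cre or its transgene cannot be told apart from those of Ctcf loss, and Camk2a-Cre acts in excitatory forebrain neurons while the RNA came from the whole tissue.

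Steroid synthesis starts when cholesterol reaches the inner mitochondrial membrane, helped by StAR (Star), with a proposed part for the translocator protein TSPO (Tspo) of the outer membrane. There the side-chain cleavage enzyme CYP11A1 turns it into pregnenolone, with electrons that ferredoxin reductase (Fdxr) passes on through ferredoxin 1 (Fdx1). In brain, pregnenolone and its products are called neurosteroids. CYP17A1 and aromatase (Cyp19a1) lead to androgen precursors and oestrogens, 5-alpha-reductase (Srd5a1) and a 3-alpha-hydroxysteroid dehydrogenase (Akr1c14) lead to allopregnanolone, which enhances GABA-A receptor currents, and CYP7B1 hydroxylates dehydroepiandrosterone and oxysterols.

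Each value for Cyp11a1 below rests on 1 probe of 60 bases that starts at base 1428 of the transcript named in the deposited files. It is shown with probes for genes linked to the supply of cholesterol and electrons to the enzyme. The comparison along the first step of the pathway depends on what these oligos detect. The sequences are those in the deposited files, 5′ to 3′, with nothing marked in capitals.
Cyp11a1 probe: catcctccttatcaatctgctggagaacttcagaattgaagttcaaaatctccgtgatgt
Star probe: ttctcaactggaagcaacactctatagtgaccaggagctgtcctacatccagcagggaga
Tspo probe: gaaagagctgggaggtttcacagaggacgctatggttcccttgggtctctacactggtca
Fdx1 probe: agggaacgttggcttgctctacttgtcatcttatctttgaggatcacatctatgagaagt
These 4 probes start at bases 1428, 232, 304 and 397 of their transcripts in the order shown. None of the 13 probes shared a run of 20 bases with a probe of another gene on the array. Star, Fdx1 and Srd5a1 had 2 probes each and the other 7 genes 1 probe, so for those 7 no second probe could be set beside the first.

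The table of RefSeq upstream sequences used here held 6 of the 10 genes, in 9 windows of 250 bases each (GRCm38.p6). For Cyp11a1 it held 2 starts on the plus strand of chromosome 9. Both windows are shown, since Cyp11a1 was the gene of the 10 that differed most. The first is chr9:57997774-57998023 and the second chr9:58014702-58014951. Capitals mark letters that match a searched motif, and the last base of each window is the one just before the start.
Cyp11a1 upstream window 1: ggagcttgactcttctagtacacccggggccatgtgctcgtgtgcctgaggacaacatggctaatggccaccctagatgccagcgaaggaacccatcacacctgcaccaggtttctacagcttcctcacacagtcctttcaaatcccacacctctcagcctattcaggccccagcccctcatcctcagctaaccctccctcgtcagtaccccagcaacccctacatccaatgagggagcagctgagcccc
Cyp11a1 upstream window 2: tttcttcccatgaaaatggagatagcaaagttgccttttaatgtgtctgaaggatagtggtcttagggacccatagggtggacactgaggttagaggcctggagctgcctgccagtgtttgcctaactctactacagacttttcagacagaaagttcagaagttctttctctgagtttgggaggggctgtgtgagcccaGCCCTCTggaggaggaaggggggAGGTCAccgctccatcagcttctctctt
Searched on both strands were AGGTCA (a nuclear receptor element, also the core bound by the steroidogenic factor NR5A1), TATAA (the TATA box core), TGACGTCA (the cAMP response element), GGGCGG (the GC box) and AGNNGGC (letters from the core of the CTCF motif). Window 2 held AGGTCA at 28 to 23 bases before the start, and a minus-strand match to AGNNGGC, read as GCCCTCT, at 51 to 45 bases before it. Window 1 held none of the 5 motifs. Of 32851 upstream windows of the same length, 14.0% held AGGTCA, 22.8% TATAA, 1.55% TGACGTCA, 32.7% GGGCGG and 52.5% AGNNGGC. The CTCF core letters thus stood in most of these windows. The GC box letters stood once upstream of Fdx1, at 3 places upstream of Fdxr and at 3 upstream of Srd5a1. Cyp19a1 had 3 windows, of which 1 held AGGTCA and the others TATAA. The CTCF core letters also stood in 1 window each of Cyp19a1, Akr1c14 and Srd5a1, and in Srd5a1 they overlapped a GC box.

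The deletion, the depth of the arrays and the tissue were checked first. Ctcf, on the log2 scale relative to the 75th percentile of each array that is used throughout, was 0.18, 0.16 and 0.05 in CKO pools 1, 2 and 3, against 0.83, 1.12 and 1.04 in WT pools 1, 2 and 3, a difference of -0.87. The pools did not overlap; with limma and Benjamini-Hochberg adjustment the adjusted p was 0.142, with pool number as a block it was 0.0292, and without the second array of WT pool 1 it was 0.00420. Pool 1 of each genotype had been hybridised on 2 arrays, and the 8 arrays lay on 2 slides of 4, with the first arrays of pool 1 and pool 2 on slide 1 and the rest on slide 2. The 75th percentile signal ran from 2112 to 5104 intensity units, 59.2% to 66.0% of spots stood well above background, and 0 spots reached saturation. The second array of WT pool 1 was the dimmest and correlated with the first at r = 0.954 across probes, against 0.989 for the pair of CKO pool 1; differences without it are given for the members that it moved. Of 12 excitatory neuron markers, 11 were measured, among them Slc17a7 and Camk2a. The list averaged -0.25, -0.23 and -0.10 in CKO pools against 0.11, 0.05 and -0.16 in WT pools. List averages here and below are relative to each gene's WT mean. Of the 11, 4 were higher and 7 lower in CKO, and 0 passed by limma with Benjamini-Hochberg adjustment. At an unadjusted p under 0.05 there were 4, against 5.48% of all genes. With pool number as a block 2 passed (Wfs1 at -0.91 and C1ql2 at -1.10), against 0.562% of all genes. Slc17a7, the vesicular glutamate transporter, lay the other way, at 0.35 (adjusted p = 0.852 by limma) with pools that did not overlap. In whole tissue, fewer cells of a type and less RNA per cell cannot be told apart, and this holds for every value below.

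Cyp11a1, the enzyme that commits cholesterol to steroid synthesis, was the member with the widest gap between genotypes. The probe read -2.33, -2.18 and -2.05 in CKO pools 1, 2 and 3, against -3.79, -4.13 and -4.14 in WT pools 1, 2 and 3 (log2 relative to the array 75th percentile). No CKO pool fell below any WT pool, and the nearest pair of pools, both numbered 1, stood further apart than any pools of one genotype. The means were -2.19 ± 0.14 in CKO pools and -4.02 ± 0.20 in WT pools (SD, n = 3 each), a difference of 1.83 (SE 0.14), and the CKO level was 3.56-fold the WT level.

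The difference was present in the female pools, the male pools and the mixed pools. Between pools of the same number and makeup it was 1.46 in pool 1, 1.95 in pool 2 (females) and 2.08 in pool 3 (males). With 1 pool of each sex per genotype, the sexes were not compared by a test.

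The gap also stood in the signals before scaling. On the 4 CKO arrays the processed signal was 783.7 and 573.7 intensity units for both arrays of pool 1, 1126 for pool 2 and 1152 for pool 3. On the 4 WT arrays it was 302.7 and 160.1 for both arrays of pool 1, 264.4 for pool 2 and 225.0 for pool 3. All 8 spots were well above background, so both genotypes had a measured level. The lowest CKO signal was above the highest WT signal although these arrays differed in overall brightness. On the scaled values, the 2 arrays of WT pool 1 gave -3.86 and -3.72 and those of CKO pool 1 gave -2.33 and -2.33, and without the second array of WT pool 1 the difference was 1.86.

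**Figure D1:**
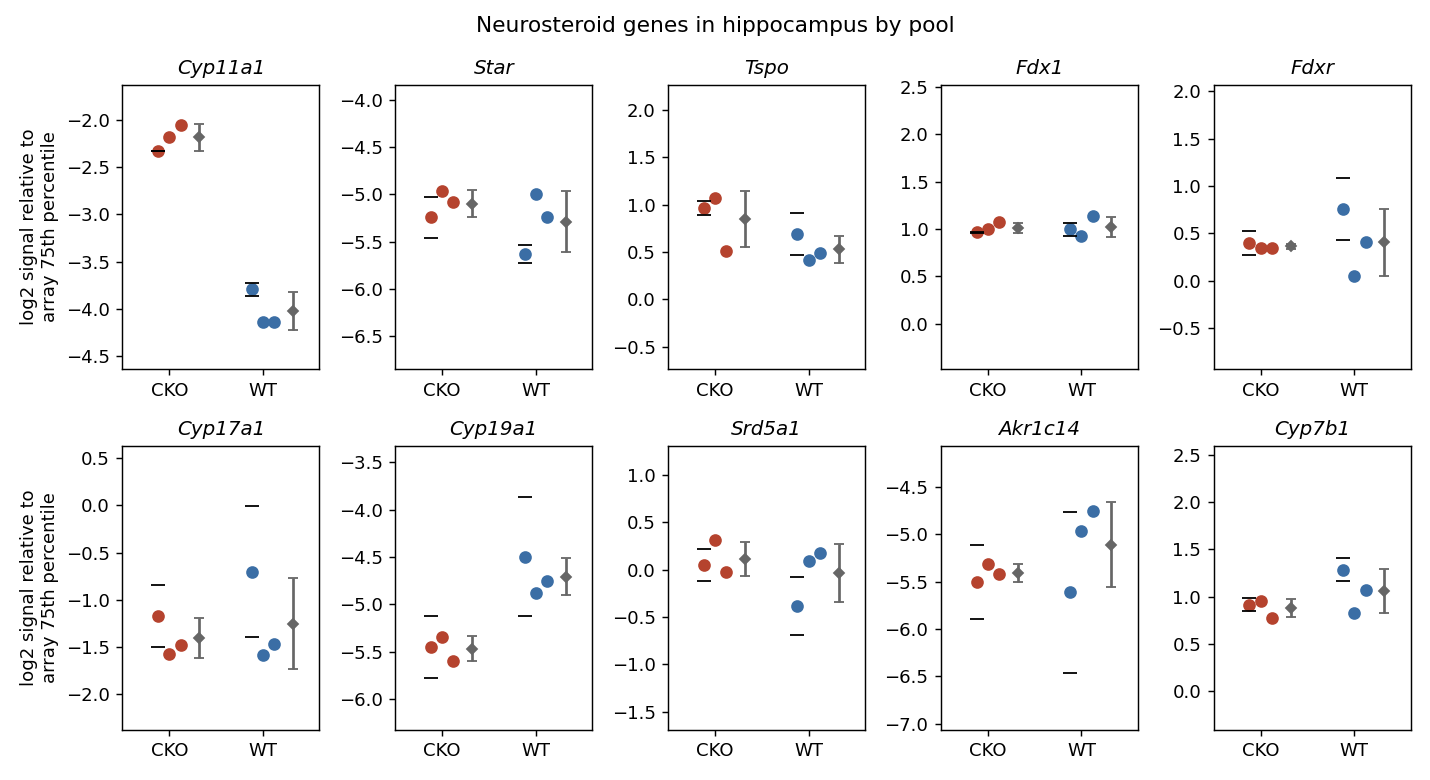
Level of each of the 10 genes in 3 CKO pools (red, left) and 3 WT pools (blue, right), as log2 signal relative to the 75th percentile of the array; every panel spans the same number of log2 units. Circles are pools 1, 2 and 3 from left to right, black ticks are the 2 arrays behind pool 1, and the grey diamond and bar are the mean and SD. Cyp11a1 stands apart upwards and Cyp19a1 downwards in CKO, and the other 8 genes have pools that overlap.

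Star, whose protein carries cholesterol to the inner membrane, was at the edge of detection. Its first probe read -5.24, -4.97 and -5.08 in CKO pools, against -5.63, -5.00 and -5.24 in WT pools, and stood well above background on 3 CKO arrays and 1 WT array of 4 each. The pools overlapped, with a difference of 0.19 (SE 0.20). The probe printed above read -5.13, -5.22 and -4.76 in CKO pools, against -5.21, -5.63 and -5.69 in WT pools. It stood well above background on 2 CKO arrays and on 0 of the WT arrays, so it is given no fold. The pools of this probe overlapped as well. Neither Star probe passed the filter on dim probes, and Star was not part of the fit over all genes.

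Tspo, the outer-membrane protein that in brain is also used as a label of activated microglia, overlapped between genotypes. It read 0.97, 1.07 and 0.51 in CKO pools and 0.69, 0.41 and 0.49 in WT pools, with means of 0.85 ± 0.30 and 0.53 ± 0.14 (SD, n = 3 each). CKO pools 1 and 2 were the highest, and CKO pool 3 lay among the WT pools. The difference was 0.32 (SE 0.19), and it was 0.27, 0.65 and 0.02 between pools 1, 2 and 3. Within slide 1 it was 0.54 and within slide 2 it was 0.07. Without the second array of WT pool 1 it was 0.39. A list of 14 microglia markers averaged 0.21, 0.45 and -0.09 in CKO pools and 0.29, -0.18 and -0.11 in WT pools, with 9 of 14 genes higher in CKO, a median of 0.18 and 0 past an adjusted p of 0.05 by limma (1 at an unadjusted p under 0.05). CKO pool 2 was the highest for Tspo and for this list, whose part in the Tspo values was not tested.

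With all arrays, the electron carriers of the side-chain cleavage reaction differed between genotypes by at most 0.06 in either direction. Fdx1, the ferredoxin, read 0.97, 1.00 and 1.07 in CKO pools and 1.00, 0.93 and 1.13 in WT pools with its brighter probe, a difference of -0.0048 (SE 0.07). The Fdx1 probe printed above read 0.85, 1.01 and 0.93 in CKO pools and 0.88, 0.89 and 0.84 in WT pools, a difference of 0.06 (SE 0.05). Fdxr, the reductase, read 0.40, 0.35 and 0.35 in CKO pools and 0.76, 0.05 and 0.41 in WT pools, a difference of -0.04 (SE 0.20). In all 3 probes the pools overlapped. The spread of the Fdxr values came from the WT pools, and without the second array of WT pool 1 the difference was 0.07 (-0.03 and 0.0085 for the 2 Fdx1 probes). The Fdxr difference was 0.07 within slide 1 and -0.31 within slide 2.

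Cyp17a1, the hydroxylase and lyase that takes pregnenolone towards androgen precursors, read -1.17, -1.57 and -1.48 in CKO pools, against -0.70, -1.59 and -1.47 in WT pools. The pools overlapped, and the difference of -0.15 (SE 0.30) was carried by pool 1: it was -0.47 there, 0.02 in pool 2 and -0.01 in pool 3. The 2 arrays of WT pool 1 read -1.40 and -0.01, and without the second the difference was 0.08.

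Cyp19a1, the aromatase that forms oestrogens, was the one other member whose pools did not overlap, and it lay lower in CKO. It read -5.45, -5.35 and -5.60 in CKO pools, against -4.50, -4.88 and -4.76 in WT pools. The means were -5.47 ± 0.13 in CKO pools and -4.71 ± 0.19 in WT pools (SD, n = 3 each), a difference of -0.76 (SE 0.13), a WT level 1.69-fold that of CKO on these near-background signals. The signal was dim: 72.0, 82.6, 125.2 and 98.3 intensity units on the CKO arrays and 126.7, 144.4, 157.9 and 146.2 on the WT arrays, each with both arrays of pool 1 first. It stood well above background on 1 CKO array and on all 4 WT arrays, so the gene passed the filter through the genotype in which it was higher. The 2 arrays of WT pool 1 read -5.12 and -3.87, and without the second the difference was -0.55. It was -0.56 within slide 1, -1.05 within slide 2 and -0.47 with another background correction (normexp).

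The enzymes of the allopregnanolone branch overlapped between genotypes. Srd5a1, the 5-alpha-reductase, read 0.05, 0.31 and -0.03 in CKO pools and -0.39, 0.09 and 0.18 in WT pools, a difference of 0.15 (SE 0.20), or 0.05 without the second array of WT pool 1. A second Srd5a1 probe was well above background on 1 CKO array and on 0 WT arrays, and is given no fold. Akr1c14, the 3-alpha-hydroxysteroid dehydrogenase, read -5.51, -5.32 and -5.41 in CKO pools and -5.61, -4.97 and -4.75 in WT pools. It stood well above background on 2 CKO arrays and 3 WT arrays, was not part of the fit over all genes, and differed by -0.30 (SE 0.26), or by -0.59 without the second array of WT pool 1.

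Cyp7b1, the hydroxylase of dehydroepiandrosterone and oxysterols, read 0.91, 0.95 and 0.78 in CKO pools and 1.29, 0.83 and 1.07 in WT pools. The pools overlapped, and the difference was -0.18 (SE 0.14). Leaving out the second array of WT pool 1 gave -0.14. The Cyp7b1 difference was -0.09 within slide 1 and -0.36 within slide 2.

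Across the set, 8 of the 10 genes passed the filter and entered the fit over 18334 genes, and Star and Akr1c14 did not. Of the 8, 3 were higher and 5 lower in CKO, with a median difference of -0.02, against -0.0032 over all genes tested. That split is not firm: among the 20 alternatives the sign turned in 6 for Fdx1, 4 for Fdxr, 2 for Cyp17a1 and 1 for Srd5a1. Cyp11a1 was the 1 member past an adjusted p of 0.05 by limma with Benjamini-Hochberg adjustment, where 0.0436% of all genes passed, 0.0382% higher and 0.00545% lower in CKO. That call was lost in 9 of 20 alternatives: with normexp, within slide 1, within slide 2, with the authors' value table, and without CKO pool 1, 2 or 3 or WT pool 2 or 3 (5 of the 6 fits that leave out a pool). With pool number as a block it was again 1 member, where 0.562% of all genes passed, 0.393% higher and 0.169% lower. Pools did not overlap for 2 of the 8, against 11.4% of all genes (5.71% with CKO above WT and 5.64% with CKO below WT). The members were chosen on this contrast, so these counts describe them and nothing is read from them. Cyp11a1 held rank 15 among the 18334 genes ordered from the highest difference in CKO downwards.

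**Figure D2:**
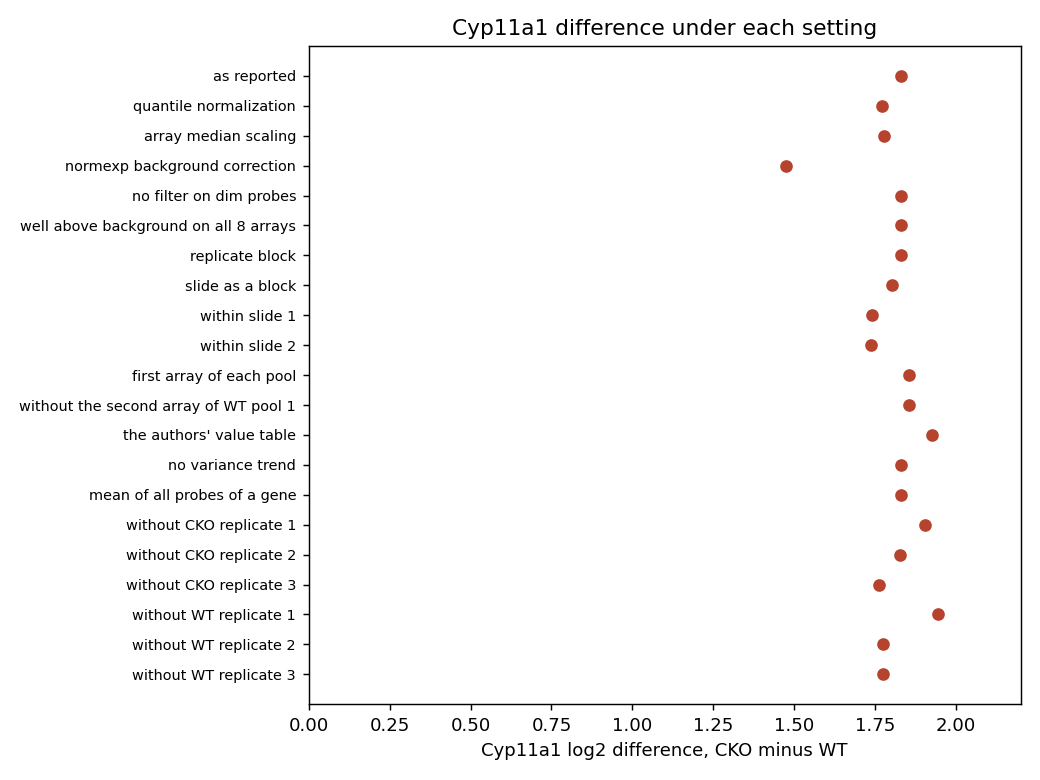
Cyp11a1 log2 difference, CKO minus WT, as reported (top) and under each of 20 alternatives of scaling, background correction, filter, block, slide, array choice and pool choice. Points lie between 1.47, with the normexp background correction, and 1.95, without WT pool 1.

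The next question was whether genes around Cyp11a1 on chromosome 9 differed with it. Of the 5 nearest genes on each side in the RefSeq gene order, 6 had a measured probe. In gene order these were Arid3b, Ubl7 and Sema7a on one side and Ccdc33, Stra6 and Islr on the other. By limma 0 of the 6 passed, each with an adjusted p of 0.999, and 0 had an unadjusted p under 0.05. Their differences ran from -0.11 for Ubl7 to 0.23 for Ccdc33, against 1.83 for Cyp11a1.

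Sema7a, a membrane-anchored semaphorin and the gene next to Cyp11a1, read 2.74, 2.82 and 2.98 in CKO pools and 2.55, 2.91 and 3.11 in WT pools, a difference of -0.01 (limma SE 0.16), and its sign turned in 9 of 20 alternatives, quantile normalization among them. Pools did not overlap for 1 of the 6 neighbours, Ccdc33, a coiled-coil gene, against 11.4% of all genes. Ccdc33 read -2.56, -2.55 and -2.38 in CKO pools, against -2.83, -2.66 and -2.67 in WT pools, a difference of 0.23 (limma SE 0.17). Arid3b, a DNA-binding protein gene, differed by 0.17 (limma SE 0.22), Stra6, a retinol transporter, by 0.0048 (limma SE 0.24) and Islr by -0.02 (limma SE 0.16). The signs of Arid3b, Ubl7, Stra6 and Islr each turned in at least 1 alternative, for Stra6 also with quantile normalization and with median scaling. The other 4 of the 10 neighbours, Gm7547, Gm9715, Gm17322 and Gm16130, were not analysed here.

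**Figure D3:**
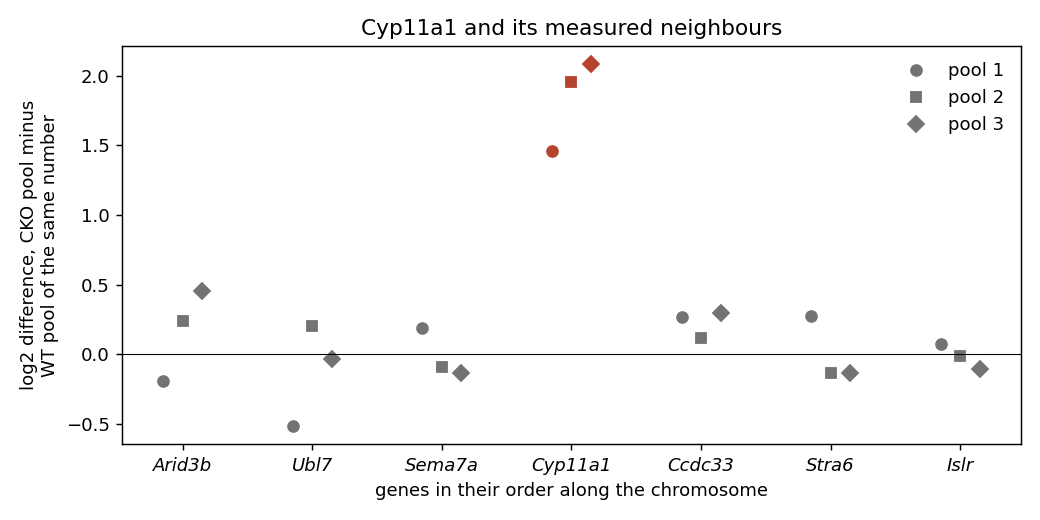
Log2 difference between the CKO and WT pool of the same number for Cyp11a1 (red) and its 6 measured neighbours (grey), in gene order. Circles, squares and diamonds are pools 1, 2 and 3; Cyp11a1 lies between 1.46 and 2.08, and every neighbour's 3 points lie between -0.52 and 0.46.

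The 5 lists of pathway genes around the members held 125 genes, of which 96 were tested. Of these, 57 were higher and 39 lower in CKO, with a median difference of 0.05, and 0 passed an adjusted p of 0.05 by limma. At an unadjusted p under 0.05 there were 2 (Stard5 and Nr2f2), against 5.48% of all genes. With pool number as a block 1 of the 96 passed (Stard5), against 0.562% of all genes. Pools did not overlap for 7 of the 96 (7.29%), 4 higher and 3 lower in CKO, against 11.4% of all genes.

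Among 20 cholesterol handling genes, 14 were higher and 6 lower in CKO, with a median of 0.10. Stard5, a cytosolic sterol carrier of the StAR-related family, read -2.10, -1.77 and -1.93 in CKO pools, against -2.93, -2.77 and -3.15 in WT pools. The genotypes did not overlap, and the CKO level was 2.03-fold the WT level. The difference was 1.02 (limma SE 0.19), and the adjusted p by limma was 0.183 without a block. It was 0.0466 with pool number as a block, 0.0359 with first arrays alone and 0.0346 without the second array of WT pool 1. These were the only 3 of 20 alternatives in which Stard5 passed. With the mean of its probes the difference was 0.74, the lowest of the 20 (adjusted p = 0.434 by limma). Stard4, another sterol carrier of that family, differed by 0.57 (limma SE 0.27, adjusted p = 0.969) with pools that overlapped, and by 0.89 without WT pool 2 and 0.35 without WT pool 3. Soat1, which esterifies cholesterol for storage, differed by 0.32 (limma SE 0.20, adjusted p = 0.999) with pools that did not overlap, and by 0.21 without CKO pool 1.

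Of 22 cholesterol synthesis genes, 12 were higher and 10 lower in CKO, with a median of 0.04. Pools did not overlap for 3 of the 22, against 11.4% of all genes: Hsd17b7 (0.33, limma SE 0.16), Tm7sf2 (-0.31, limma SE 0.14) and Sqle (-0.22, limma SE 0.11). Their adjusted p-values by limma were 0.949, 0.914 and 0.978 in that order. Mvk, mevalonate kinase, differed by -0.27 (limma SE 0.14) with overlapping pools, and by -0.17 without CKO pool 3.

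Of 38 other steroid enzymes, 22 were tested, 15 higher and 7 lower in CKO, with a median of 0.11 and 0 whose pools did not overlap. Among the 16 not tested were Hsd3b1, Hsd3b3 and Hsd3b6, whose products turn pregnenolone into progesterone, and the adrenal enzymes Cyp11b1 and Cyp11b2. Hsd3b2, of the same family as the first 3, was among the 22 tested, of which 0 had an adjusted p under 0.05 by limma. Sult2b1, a sulfotransferase of cholesterol and pregnenolone, read 1.32, 0.66 and 1.70 in CKO pools, against 1.05, 0.28 and 0.37 in WT pools, a difference of 0.66 (limma SE 0.29, adjusted p = 0.914), or 0.43 without CKO pool 3. Ch25h, the cholesterol 25-hydroxylase, read -1.41, -1.85 and -3.31 in CKO pools, against -2.35, -2.51 and -3.85 in WT pools. Pool 3 was the lowest of each genotype, and each CKO pool lay above the WT pool of its number, with a difference of 0.72 (limma SE 0.54, adjusted p = 0.999, and 0.198 with pool number as a block). It was 0.33 without CKO pool 1, 1.28 without CKO pool 3 and 0.24 without WT pool 3.

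Of 23 regulators of steroid synthesis, 13 were tested, 6 higher and 7 lower in CKO, with a median of -0.0036. Nr2f2, a nuclear receptor known as COUP-TFII, read 0.74, 0.73 and 0.69 in CKO pools, against 1.03, 1.03 and 1.08 in WT pools. Its pools did not overlap and the spread within each genotype was narrow, with a difference of -0.33 (limma SE 0.11, adjusted p = 0.745). Nr5a1, the steroidogenic factor that drives Cyp11a1 in adrenal and gonad, read -0.80, -1.20 and -1.22 in CKO pools, against -0.98, -1.84 and -1.28 in WT pools, a difference of 0.29 (limma SE 0.24, adjusted p = 0.999) with pools that overlapped. Nr4a1, an activity-induced nuclear receptor, read 4.30, 2.22 and 4.27 in CKO pools, against 3.14, 2.43 and 2.94 in WT pools; CKO pools 1 and 3 were the highest and CKO pool 2 the lowest of all, with a difference of 0.76 (limma SE 0.51, adjusted p = 0.999). It was 0.41 without CKO pool 1, 1.45 without CKO pool 2 and 0.42 without CKO pool 3. Nr5a2, Gata4, Gata6 and the receptors Lhcgr, Fshr and Mc2r were among the 10 not tested.

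Of 22 steroid receptor genes, 19 were tested, 10 higher and 9 lower in CKO, with a median of 0.04. Pgrmc1, a membrane progesterone-binding protein, read 3.65, 3.77 and 3.74 in CKO pools, against 3.51, 3.51 and 3.51 in WT pools, a difference of 0.21 (limma SE 0.11, adjusted p = 0.978) with pools that did not overlap. Gpr183, a receptor for the 7-alpha-hydroxylated oxysterols that CYP7B1 and CH25H help to form, differed by 0.42 (limma SE 0.27, adjusted p = 0.999) with overlapping pools, and by 0.69 without WT pool 1 and 0.24 without WT pool 2.

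**Figure D4:**
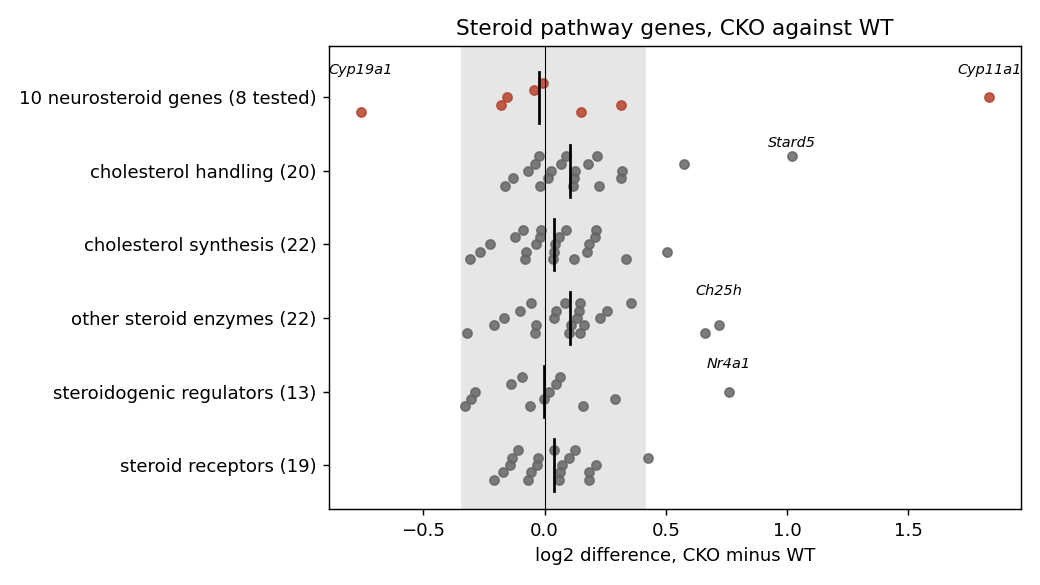
Log2 difference, CKO minus WT, of the 8 tested members (red) and of the tested genes of 5 pathway lists (grey), 1 point a gene, with the list median as a black bar; vertical offsets only separate points. The grey band runs from -0.34 to 0.41, the 5th to 95th percentile of all 18334 genes. Cyp11a1 lies at 1.83, Cyp19a1 at -0.76 and Stard5 at 1.02, and most other points lie within the band.

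Markers of other cells that a dissection could hold were set beside Cyp11a1. Of 10 steroid gland markers 4 were tested, 4 higher and 0 lower in CKO, with a median of 0.19. Relative to each gene's WT mean, they averaged 0.35, 0.23 and 0.19 in CKO pools and 0.18, -0.20 and 0.02 in WT pools. Cyp11b1, Mc2r, Lhcgr, Amh and Fshr did not pass the filter on dim probes. Inha, Nr5a1, Mrap and Cyp21a1 stood well above background on all 4 arrays of each genotype. Inha, an inhibin subunit, was the 1 gland marker of 4 with pools that did not overlap (0.57, limma SE 0.13, adjusted p = 0.300), against 11.4% of all genes. It was also the 1 with an unadjusted p under 0.05 by limma, against 5.48% of all genes. Nr5a1, Mrap and Cyp21a1 differed by 0.29, 0.08 and 0.08, each with overlapping pools.

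Of 13 tested reactive astrocyte markers, 12 were higher in CKO, with a median of 0.59. The list averaged 0.84, 0.88 and 0.49 in CKO pools and 0.19, -0.01 and -0.18 in WT pools. By limma 0 of the 13 passed, 8 had an unadjusted p under 0.05 and 5 passed with pool number as a block. Over all genes these shares were 5.48% for the unadjusted p and 0.562% with the block. Pools did not overlap for 8 markers higher and 1 lower in CKO, against 11.4% of all genes. Choroid plexus markers were higher in CKO for 14 of 14 genes, with a median of 0.82, 0 passed by limma and 3 had an unadjusted p under 0.05. Pools did not overlap for 3 of the 14. That list averaged 0.90, 0.96 and 0.48 in CKO pools and -1.13, 0.41 and 0.71 in WT pools, so WT pool 3 lay above CKO pool 3, and WT pool 1 was far below the other pools. Endothelial and mural markers averaged 0.12, 0.19 and 0.01 in CKO pools and 0.14, 0.03 and -0.17 in WT pools, and meningeal markers 0.15, 0.08 and -0.28 in CKO pools and 0.15, -0.06 and -0.09 in WT pools. The part of these cell types in the Cyp11a1 values was not tested.

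The genes whose pattern over the 6 pools was most like that of Cyp11a1 were found by the root mean square difference of their log2 values. Each gene was set relative to its own WT mean. Clone and accession names, and names absent from the RefSeq genes, were left out of this ranking. The 5 nearest were Nmbr, the neuromedin B receptor, at 0.242, Rxfp1, a relaxin receptor, at 0.249, Chrna1, a nicotinic receptor subunit, at 0.312, Krt78, a keratin, at 0.317 and Robo3, an axon guidance receptor, at 0.323. The measure uses the genotype difference itself, so the likeness is a description. Nmbr read -1.03, -1.05 and -1.10 in CKO pools, against -2.81, -2.49 and -2.92 in WT pools, a difference of 1.68. Rxfp1 read -1.42, -1.64 and -1.53 in CKO pools, against -3.28, -2.98 and -3.60 in WT pools, a difference of 1.75. Chrna1 differed by 1.46 and Robo3 by 2.25, and Krt78, well above background on 0 of 4 WT arrays, was at least 1.57-fold higher in CKO. None of the 5 belongs to the members or to the pathway lists.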

How the data were processed

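RNA from hippocampus pools of 3 mice was labelled with Cy5 alone, per the labels. The authors deposited spot intensity values; the submitters' processing notes name Agilent Feature Extraction 11.5 for them. The intensity used, per the file headers, had background subtracted and no normalization between arrays. Other deposited columns used were flags for well above background, saturation and outliers. Values here are log2 of the processed signal minus that of the array's 75th percentile. Outlier spots were left out, then spots of a probe and arrays of a pool were averaged (n = 3 pools per genotype). Kept were 23648 probes that stood well above background throughout 1 genotype or both, a gene being read by its brightest probe. limma 3.58.1 (lmFit, eBayes with trend) in R 4.3.3 compared genotypes without a block (two-sided), p-values were adjusted by Benjamini-Hochberg over 18334 genes, and the threshold was 0.05. Replicates are separate pools, per the labels. The smallest exact p for 3 against 3 pools is 0.1.

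The members, the pathway and marker lists and the rule for named genes were chosen with earlier results of these data known. The rule took all members, up to 4 genes of each list by unadjusted p, neighbours of Cyp11a1 with a probe and the 5 genes most like it. Clone and accession names, and names absent from the RefSeq genes, were left out before those 5 were taken. Other named genes were chosen after their values were seen. A bound ("at least") sets the CKO mean against the WT mean after each WT array's signal was raised, where lower, to the lowest signal that stood well above background there. Same-numbered pools share sex and age makeup in the labels. Their deviations from the genotype means correlated across genes at 0.55, 0.33 and 0.13, against -0.48 to 0.12 between other pools. Pool number was therefore used as a block in an alternative. With first arrays alone the correlations of same-numbered pools were 0.09, 0.08 and 0.12. The alternatives were 2 other scalings, normexp, 2 filters, blocks for pool and slide, each slide, array choices, the value table deposited by the authors as linear intensity, no variance trend, the mean of probes, and leaving out each pool. Genes were named through RefSeq accessions (27508 probes), symbols (3544) or synonyms (404), and 7973 probes kept the name in the file. The file headers name build mm9, so coordinates are given only for RefSeq's own upstream windows (GRCm38.p6).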

Additional observations from a re-analysis of the deposited data

How the results depend on the processing

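The Cyp11a1 difference ran from 1.47, with the normexp background correction, to 1.95 over the 20 alternatives, and from 1.76 to 1.95 without 1 pool. Its pools did not overlap, so leaving out pools or arrays could not turn its sign, and nothing is read from that sign. Cyp11a1 passed the adjusted p threshold in 11 of 20 alternatives and in 1 of the 6 fits without 1 pool (the one without WT pool 1). Of 139 values of the other members under these alternatives, 7 moved by over 1 SD, and 0 of those members passed the threshold in any. Pathway genes called numbered 0, and 1 (Stard5) with the replicate block, with first arrays alone and without the second array of WT pool 1. Counts of all genes, 7 higher and 1 lower in CKO, depended on these same settings: with the replicate block they were 72 and 31, with first arrays 69 and 69, without the second array of WT pool 1 70 and 67, within slide 1 6 and 6, within slide 2 0 and 0, and with the value table of the authors they were 3 and 0. The lower count was 0 with quantile normalization, median scaling, normexp, no filter, the filter on all 8 arrays, the slide block, no variance trend and the mean of probes. Without 1 pool the counts ran from 0 to 13 and from 0 to 5; they were 13 and 5 without WT pool 1, 2 and 0 without CKO pool 1, and 0 and 0 without CKO pool 3 or WT pool 3. Of the 8 genes called, 3 had an adjusted p of 0.0499.

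Neighbours near 0 changed sign. Sema7a was 0.0044 with quantile normalization, 0.0078 with normexp, 0.0035 with the slide block, 0.086 within slide 2, 0.022 with the authors' value table and between -0.17 and 0.11 without 1 pool. Stra6 was -0.024 with quantile normalization, -0.050 with median scaling, -0.044 with first arrays, -0.12 without the second array of WT pool 1, -0.047 with the authors' value table and between -0.21 and 0.21 without 1 pool. Within slide 2 Arid3b was -0.011 and Islr 0.057; without 1 pool Islr lay between -0.11 and 0.078 and Ubl7 between -0.23 and 0.069. The cause was not tested.

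The 3 pools per genotype limit the precision, dim probes (Star, Cyp19a1, Akr1c14) sit near background, and 7 of the 10 genes rest on 1 probe.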
